A study of Mus musculus with 12 samples.

Results

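The Ifit genes of mouse blood were the 6 genes of the deposited blood table whose symbol starts with Ifit followed by a digit, namely *Ifit1*, *Ifit1bl1*, *Ifit1bl2*, *Ifit2*, *Ifit3* and *Ifit3b*, out of 8003 genes in that table. The hippocampus table of the same mice has 284 genes and 0 Ifit genes, so the values are from blood. RNA came from C57BL/6 mice aged 15 months. The Ctrl group (Ctrl 1, 2 and 3, treatment label Normal) and the *A. muciniphila*-treated group (Akk 1, 2 and 3) had 3 mice each, with 1 blood library per mouse, among 12 libraries in the series. The agent given to the Akk group is described differently by the sources. The labels name a membrane protein of *Akkermansia muciniphila*, a mucin-degrading gut bacterium, for 8 weeks in the treatment field and 6 weeks in a protocol field that the Ctrl samples carry too. The methods of the study describe gavage with the bacterium itself in antibiotic-pretreated mice, with a vehicle for the controls, and say that the mice used for RNA were ones in which the bacterium was not successfully colonized. Membership was set by gene name, but the rows of the table are genes that the study selected on this same comparison of Akk with Ctrl mice. Differences between the groups are therefore given as descriptions of these 6 libraries, with no test read from them.

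Ifit genes encode interferon-induced proteins with tetratricopeptide repeats, which bind RNA and are among the most strongly induced genes of the antiviral response. Type I interferon binds its receptor, Janus kinases are activated, and the transcription factor complex ISGF3 forms, which contains IRF9 and binds the interferon-stimulated response element (ISRE) in the promoters of Ifit and other genes. The Ifit1 protein holds viral RNA that lacks the methyl mark of a mature cap and keeps it from being translated, and Ifit2 and Ifit3 act as partners in Ifit complexes.

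The family lies in a single cluster of 99.3 kb on chromosome 19 (GRCm38, GENCODE annotation). *Ifit2* is at 34550694 to 34576419 on the plus strand, *Ifit3* at 34583531 to 34588731 on the plus strand, and *Ifit1bl1* at 34592891 to 34601956 on the minus strand. They are followed by *Ifit3b* at 34607970 to 34613401 on the plus strand, *Ifit1bl2* at 34617049 to 34640743 on the minus strand and *Ifit1* at 34640871 to 34650009 on the plus strand. In RefSeq *Ifit1bl1* is longer, from 34592888 to 34662981, a span that covers *Ifit3b*, *Ifit1bl2* and *Ifit1*. Which gene model the deposited levels rest on is not given in the sources used here. *Ifit1* and *Ifit1bl2* face away from each other, and the start sites of their neighbouring RefSeq promoter windows are 146 bases apart. *Ifit3* and *Ifit3b* are near copies, with 97.8% identity over 1700 bases, which is 97.4% of the *Ifit3* transcript and 84.9% of the *Ifit3b* transcript. Reads could thus have been split between these 2 genes by the authors' counting, and their separate levels are uncertain. *Ifit1bl1* and *Ifit1bl2* matched at 89.4% identity over 2208 bases, and *Ifit1* matched them at 86.0% and 84.5% over shorter stretches.

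The promoters are shown because the members were compared as genes under one response element. The letters searched were GAAA, a gap of 2 bases of any kind and GAAA again, the spaced core of the ISRE, on both strands, so that TTTC, a gap of 2 bases and TTTC counts as a match too. The RefSeq promoter windows run from 250 bases before to 50 bases after a start site (GRCm38.p6). Each stretch below holds the 200 bases before the start site, 5′ to 3′ on the strand of the gene, and capitals mark the matches. *Ifit1* is from chr19:34640689-34640888 (plus strand), *Ifit1bl1* from chr19:34601969-34602168 (minus strand), *Ifit3* from chr19:34583329-34583528 (plus strand) and *Ifit3b* from chr19:34607757-34607956 (plus strand).
Ifit1: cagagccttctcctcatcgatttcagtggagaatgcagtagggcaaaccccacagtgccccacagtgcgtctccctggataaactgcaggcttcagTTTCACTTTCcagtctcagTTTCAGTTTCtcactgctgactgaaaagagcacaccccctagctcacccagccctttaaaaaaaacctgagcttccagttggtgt
Ifit1bl1: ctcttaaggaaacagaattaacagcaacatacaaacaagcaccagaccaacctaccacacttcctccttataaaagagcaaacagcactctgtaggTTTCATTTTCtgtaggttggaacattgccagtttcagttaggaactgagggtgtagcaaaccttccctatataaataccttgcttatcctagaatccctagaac
Ifit3: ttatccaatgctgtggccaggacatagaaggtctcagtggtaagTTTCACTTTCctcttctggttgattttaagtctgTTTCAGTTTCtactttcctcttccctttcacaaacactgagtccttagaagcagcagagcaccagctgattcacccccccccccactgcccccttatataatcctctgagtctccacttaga
Ifit3b: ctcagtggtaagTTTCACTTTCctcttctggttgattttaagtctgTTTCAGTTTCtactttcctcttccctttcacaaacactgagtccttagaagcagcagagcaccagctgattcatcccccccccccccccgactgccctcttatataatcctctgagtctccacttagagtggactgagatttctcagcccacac

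*Ifit3* and *Ifit3b* carried the same pair of cores, with 34 bases from the first letter of one to the first letter of the next, and their windows aligned at 94.5% identity over 274 bases. In *Ifit1* the pair was 19 bases apart. The same pair is in the *Ifit1bl2* window next to *Ifit1*, on the opposite strand, because that window overlaps the *Ifit1* window by 245 bases. The other *Ifit1bl2* window and both *Ifit2* windows held 0 matches of these letters. At least 1 window with a match was found for 5 of the 6 Ifit genes. Windows outside chromosome 18 numbered 32851, of which 3.44% held a match, and the share was 4.21% of the 6438 genes of the blood table that had a window.

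**Figure D1:**
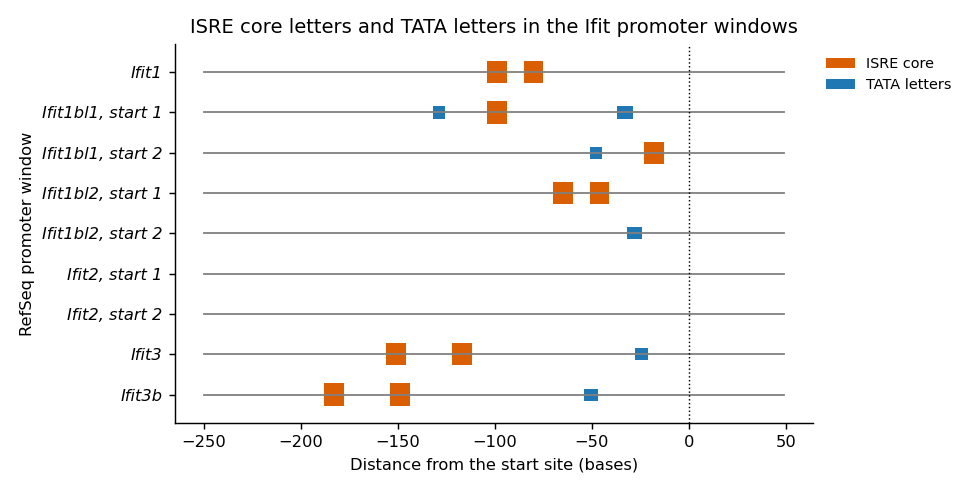
Position of the ISRE core letters (orange, either strand) and of the letters TATAAA or TATATAA on the gene's own strand (blue; these overlap each other in *Ifit1bl1* and *Ifit1bl2*, and 9.49% of all windows hold one) in the 9 RefSeq promoter windows of the 6 Ifit genes, in bases from the start site (dotted line). *Ifit3* and *Ifit3b* show the same pair of cores shifted by their start sites, and the 2 *Ifit2* windows show none.

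The deposited values are FPKM, read fragments corrected for gene length and for the total mapped in each library, so levels can be set beside each other between genes. Sequencing depth is unknown, since the values have 2 decimals and the smallest value above 0 is 0.01 FPKM, the rounding step. Ctrl 1 stood apart from the other 5 libraries. Its summed FPKM over the 8003 genes was 70846, and that of the others was between 10311 and 19551, and Ctrl 1 held the highest value for 98.2% of the genes. The median gene was 3.20-fold higher in Ctrl 1 than in Ctrl 2. Values are therefore also given without Ctrl 1 and with each library centred on the median log2(FPKM + 0.1) of its 8003 genes. As to the tissue label, platelet (4 of 4 listed markers in the table), neutrophil (8 of 9), monocyte (5 of 5) and natural killer cell (3 of 3) markers had values, with 1 of 4 B cell, 2 of 5 T cell and 0 of 7 red cell markers. Since the table holds only genes that the study selected on the comparison of Akk with Ctrl, a marker missing from it may still be expressed in these libraries.

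*Ifit1* (NCBI gene 15957), the cap sensor of the family, was at 47.24, 16.31 and 6.24 FPKM in Ctrl 1, 2 and 3 and at 1.46, 2.33 and 1.65 FPKM in Akk 1, 2 and 3. Each Ctrl mouse was above each Akk mouse, and the lowest Ctrl value, in Ctrl 3, was still above the highest Akk value, in Akk 2. The group means were 23.3 ± 21.4 FPKM in Ctrl and 1.81 ± 0.457 FPKM in Akk (SD, n = 3 each), a 12.8-fold lower mean in the Akk group. Without Ctrl 1 the mean was 6.22-fold lower. On the log2(FPKM + 0.1) scale, which understates differences of low genes, the log2 fold change was -3.18 (standard error 0.94 from limma), and it was -2.44 (0.45) without Ctrl 1 and -2.19 (0.38) with libraries centred and Ctrl 1 left out. *Ifit1* was the member whose difference depended least on Ctrl 1. In centred units it was even higher in Ctrl 2 (5.19) than in Ctrl 1 (4.97), with Ctrl 3 at 4.31 and the Akk mice at 1.96, 3.12 and 2.59.

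*Ifit1bl1* (NCBI gene 667373), an *Ifit1*-like gene, followed *Ifit1* at a lower level. It had values of 11.69, 1.70 and 0.76 FPKM (Ctrl 1, 2, 3) and 0.33, 0.44 and 0.33 FPKM (Akk 1, 2, 3). The groups did not overlap, and the Akk mice were close together, at 0.367 ± 0.0635 FPKM (SD, n = 3). The log2 fold change was -2.50 (standard error 0.92) and became -1.17 (0.32) with libraries centred and Ctrl 1 left out. Across the 5 libraries without Ctrl 1 the centred values of *Ifit1* and *Ifit1bl1* had a Pearson r of 0.99, the highest of the 15 member pairs. Over all 6 libraries it was 0.922, just below the 0.923 of *Ifit1bl1* and *Ifit3b*. The points share their libraries, the RefSeq span of *Ifit1bl1* covers *Ifit1*, and these values are a description.

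*Ifit1bl2* (NCBI gene 112419), whose start site lies next to that of *Ifit1*, was the lowest member in 5 of 6 libraries (Akk 1 was the other). Its values were 3.07, 0.23 and 0.23 FPKM in the controls and 0.14, 0.08 and 0.22 FPKM in the Akk mice. Outside Ctrl 1 all values were within 0.08 to 0.23 FPKM, and the groups were kept apart by a single rounding step of 0.01 FPKM, between Akk 3 and the pair of Ctrl 2 and Ctrl 3. The log2 fold change of -1.55 (standard error 0.89) became -0.21 (0.33) with libraries centred and Ctrl 1 left out, smaller than its error.

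*Ifit2* (NCBI gene 15958), an RNA-binding member known from protection against neurotropic viruses, stood at 16.62, 2.03 and 1.05 FPKM over the controls, with 1.35, 0.93 and 0.55 FPKM over the treated mice. The groups overlapped, since Akk 1 was above Ctrl 3. Its log2 fold change was -1.80 (standard error 0.93), without Ctrl 1 it was -0.66 (0.45), and with libraries also centred it was -0.41 (0.31). Centred values outside Ctrl 1 ran from 1.16 in Akk 3 to 2.24 in Ctrl 2, with Akk 1 at 1.86, Akk 2 at 1.88 and Ctrl 3 at 1.85. With libraries centred and Ctrl 1 left out, *Ifit2* and *Ifit1bl2* were the 2 members with the smallest differences between the groups.

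*Ifit3* (NCBI gene 15959), a partner in Ifit protein complexes, had the widest range of the family. It measured 64.72, 4.21 and 0.61 FPKM in Ctrl 1 to 3, against 0.86, 0.20 and 0.59 FPKM in Akk 1 to 3. Ctrl 3 thus lay between Akk 3 and Akk 1, and the groups overlapped. Ctrl 1 was 15.4-fold above Ctrl 2 and 106-fold above Ctrl 3. Of the 8003 genes, 0.175% had a larger log2 difference between Ctrl 1 and Ctrl 2, and 0.0125%, that is 1 gene, a larger one between Ctrl 1 and Ctrl 3. The SD of the log2 values among the Ctrl mice was 3.28 for *Ifit3*, against 1.45 for *Ifit1* and a median of 1.18 over the table. The log2 fold change of *Ifit3* was -3.32 (standard error 0.93), -1.58 (0.76) without Ctrl 1 and -1.33 (0.51) with libraries also centred.

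*Ifit3b* (NCBI gene 667370), the copy of *Ifit3*, had values of 24.86, 1.70 and 0.37 FPKM (Ctrl 1, 2, 3) and 0.06, 0.17 and 0.51 FPKM (Akk 1, 2, 3). Here Akk 3 was above Ctrl 3. The log2 fold change was -3.22 (standard error 0.92) and -1.38 (0.56) with libraries centred and Ctrl 1 left out. The ratio of *Ifit3b* to *Ifit3* was 0.384, 0.404 and 0.607 in Ctrl 1, 2 and 3 and 0.0698, 0.850 and 0.864 in Akk 1, 2 and 3. It was similar in the pair of libraries with the most *Ifit3*, Ctrl 1 and Ctrl 2, and spread widely where both genes were below 1 FPKM. The split of reads between the copies was not tested.

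**Figure D2:**
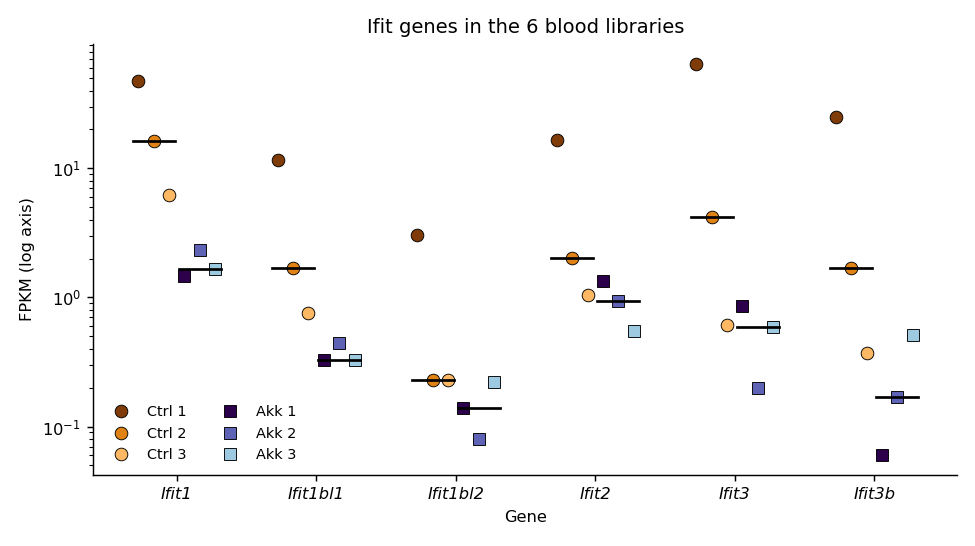
FPKM (log axis) of each Ifit gene in the 6 blood libraries, with Ctrl mice as circles, Akk mice as squares and black bars at the group medians. Ctrl 1 is the highest library for every gene, and the groups separate clearly for *Ifit1* (lowest Ctrl 6.24, highest Akk 2.33 FPKM) but overlap for *Ifit2*, *Ifit3* and *Ifit3b*.

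All 6 Ifit genes had a negative log2 fold change, as did 99.5% of the table. Their median was -2.84 against -0.87 for all 8003 genes. Without Ctrl 1 the medians were -1.50 and -0.24, with 6 of 6 members and 81.6% of the table below 0, and with libraries also centred they were -1.25 and 0.01, where 48.4% of the table was below 0. Centring on the median of these 8003 selected genes puts the table near 0 by construction. It also takes out any shift that the genes share. All Akk mice were below all Ctrl mice for 3 of 6 members and for 15.4% of the table, and with libraries centred for 2 of 6 members, *Ifit1* and *Ifit1bl1*, and for 4.44% of the table. Against Ctrl 2 and Ctrl 3 alone, a choice made after seeing the data, the counts were 3 of 6 beside 15.6% of the table, and 2 of 6 beside 9.1% with libraries centred. In the order of log2 fold changes from the lowest, *Ifit3*, *Ifit3b* and *Ifit1* took places 2, 4 and 5 of 8003. The lowest gene of the table was *Oasl2* (-3.42), and *Ifi44* (-3.27) was at place 3. Both are also interferon-induced genes. *Ifit1bl1*, *Ifit2* and *Ifit1bl2* were at places 21, 142 and 346. Without Ctrl 1 the order within the family was different, with *Ifit1* at place 9, *Ifit3b* at 38, *Ifit3* at 41, *Ifit1bl1* at 62, *Ifit2* at 814 and *Ifit1bl2* at 1873. A gene counted as called when its fold change was at least 1.5 and its adjusted p, from limma with Benjamini-Hochberg adjustment over the 8003 genes, at most 0.05. These are the thresholds of the study's methods, applied here to a different fit. The study reports as many differentially expressed genes in blood as the table has rows. Its own analysis thus appears to have called every gene of the table, the Ifit genes included. In the limma fit of the logged FPKM none of the 6 members was called (0 of 6), and neither was any gene of the table (0%). The reason for the difference between these outcomes was not tested. At an unadjusted p under 0.05 from limma, 4 of 6 members and 272 genes of the table (3.4%) were lower. The call depended on 1 control mouse, because without Ctrl 3 the same fit called *Ifit1*, *Ifit3* and *Ifit3b*, 3 of 6 members, and 23 genes of the table (0.287%), all lower in the Akk group. Since the table was chosen on this comparison, nothing is read from these counts about the treatment.

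**Figure D3:**
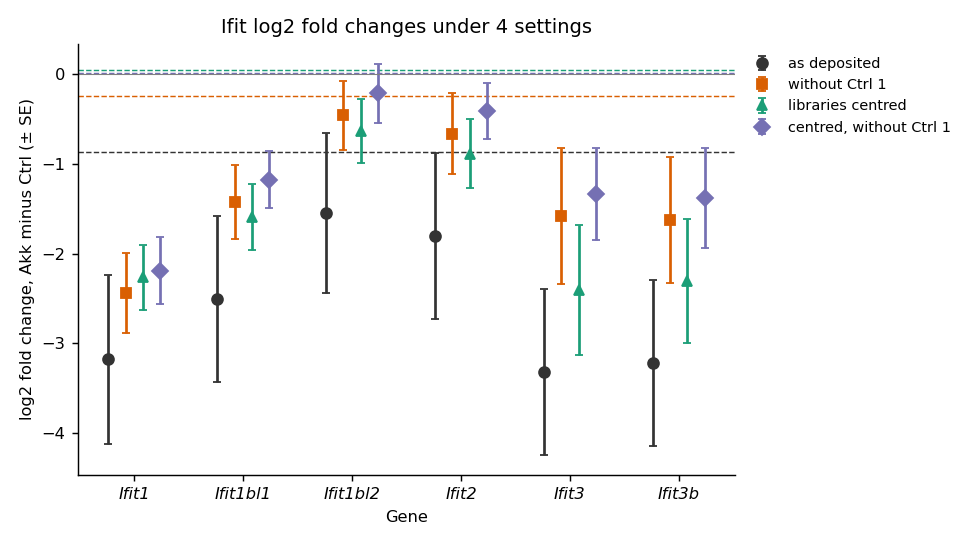
Log2 fold change of Akk minus Ctrl on the log2(FPKM + 0.1) scale for each Ifit gene, with the limma standard error as bars, for the values as deposited, without Ctrl 1, with libraries centred, and with both. Dashed lines mark the median of the 8003 genes in the same setting. *Ifit1* stays between -3.18 and -2.19, whereas *Ifit1bl2* moves from -1.55 to -0.21.

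The make-up of the family differed between libraries. The summed Ifit FPKM was 168.2, 26.18 and 9.26 in Ctrl 1, 2 and 3 and 4.2, 4.15 and 3.85 in Akk 1, 2 and 3, so that the Akk mice were nearly alike and the Ctrl mice were not. The means of these sums were 67.9 ± 87.3 FPKM in Ctrl and 4.07 ± 0.189 FPKM in Akk (SD, n = 3 each). Without Ctrl 1 the Ctrl mean was 17.7 FPKM, 4.36-fold above the Akk mean. *Ifit3* was the highest member in Ctrl 1, with 38.5% of the sum, ahead of *Ifit1* with 28.1%. In the other 5 libraries *Ifit1* was the highest, with 62.3% in Ctrl 2, 67.4% in Ctrl 3 and 34.8%, 56.1% and 42.9% in Akk 1, 2 and 3. *Ifit2* held 9.88%, 7.75% and 11.3% in the Ctrl mice and 32.1%, 22.4% and 14.3% in the Akk mice. The share of *Ifit2* was thus higher in each Akk mouse than in each Ctrl mouse, while its level was not. Shares of 1 sum move against each other by construction, so the larger *Ifit2* share goes with the smaller shares of other members.

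**Figure D4:**
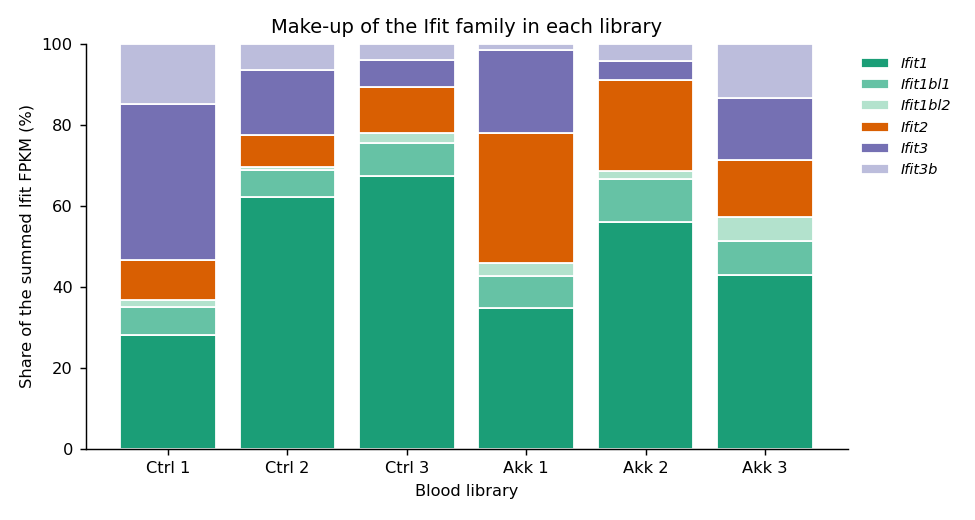
Share of each Ifit gene in the summed Ifit FPKM of each blood library, in percent. *Ifit3* is the largest part in Ctrl 1 (38.5%) and *Ifit1* in the other 5 libraries, and the *Ifit2* part is 14.3% or more in the Akk mice and 11.3% or less in the Ctrl mice.

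The interferon pathway around the Ifit genes was described with hand-written lists by role, of which 81 of 90 genes are in the blood table. All 81 had a negative log2 fold change, as did 99.5% of the table, and their median was -1.66 beside -0.87 for the table. By limma 0 of 81 were called, as 0% of the table was. An unadjusted p under 0.05 from limma was reached by 35 of them, and by 272 genes of the table (3.4%) with lower values. All Akk mice were below all Ctrl mice for 29 of the 81 genes (35.8%), and with libraries centred for 24 (29.6%), beside 15.4% and 4.44% of the table. The Ifit median of -2.84 was below the median of every role. With libraries centred and Ctrl 1 left out, the median of the 81 genes was -0.50, beside 0.01 for the table. Of the 81 genes, 70 were then below 0, beside 48.4% of the table.

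Among the genes that sense foreign nucleic acid, 7 of 8 are in the table, with a median log2 fold change of -1.91. *Ifih1*, which encodes the sensor MDA5 of long double-stranded RNA, stood at 5.35, 0.78 and 0.32 FPKM over the controls, with 0.22, 0.11 and 0.24 FPKM over the treated mice, without overlap. *Ddx58*, which encodes RIG-I, was at 7.68, 0.93 and 0.44 FPKM against 0.54, 0.28 and 0.25 FPKM, and there Akk 1 was above Ctrl 3. The 10 genes that relay the signal to interferon had a median of -0.98, near that of the table (0.026 with quantile normalization, a change of sign). *Irf7* was the lowest of them, followed by *Myd88* at -1.56. *Irf7*, the transcription factor that amplifies type I interferon, measured 175.74, 198.04 and 79.14 FPKM in Ctrl 1 to 3, against 15.57, 24.97 and 19.82 FPKM in Akk 1 to 3. Its highest value was in Ctrl 2, not in Ctrl 1, and its log2 fold change of -2.82 was -2.41 with libraries centred and Ctrl 1 left out.

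The receptor and ISGF3 list had 6 of 7 genes in the table and a median of -1.50. *Ifnar1*, a chain of the type I interferon receptor, had a log2 fold change of -0.91, which became 0.09 with libraries centred and Ctrl 1 left out. *Irf9*, the DNA-binding subunit of ISGF3, had a log2 fold change of -1.95 as deposited and of -0.78 in the other setting. Both were smaller in size than those of *Ifit1*. The 3 genes that brake the signal, all in the table, had a median of -1.41. *Usp18*, a brake that removes ISG15 and blocks the receptor, had values of 8.98, 3.18 and 0.96 FPKM (Ctrl 1, 2, 3) and 0.44, 0.39 and 0.53 FPKM (Akk 1, 2, 3), without overlap.

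The effector list, with 55 of 62 genes in the table, had a median log2 fold change of -1.73, and in 22 of 55 genes (40%, beside 15.4% of the table) all Akk mice were below all Ctrl mice. With libraries centred this held for 18 of 55 (32.7%, beside 4.44% of the table). *Oasl2*, an oligoadenylate synthetase-like gene, stood at 103.36, 61.77 and 37.86 FPKM over the controls, with 3.12, 8.62 and 6.97 FPKM over the treated mice. *Isg15*, a ubiquitin-like modifier, measured 200.47, 444.55 and 265.66 FPKM in Ctrl 1 to 3, against 72.07, 109.63 and 75.79 FPKM in Akk 1 to 3, and it was the only gene of the effector list with its highest value outside Ctrl 1. *Rtp4*, an interferon-induced gene, had values of 33.93, 8.02 and 3.12 FPKM (Ctrl 1, 2, 3) and 0.87, 0.76 and 1.47 FPKM (Akk 1, 2, 3). These 3 effectors separated the groups as *Ifit1* did, and with libraries centred *Isg15* no longer did. The log2 fold change of *Isg15* was -0.85 with libraries centred and -1.78 with Ctrl 1 also left out. In that last setting *Oasl2* was at -2.80 and *Rtp4* at -1.97. The ISRE core letters were found in a promoter window of 23 of 46 effector genes (50%) and of 28 of 66 genes (42.4%) over all interferon lists. Genes that act on the cap or on eIF3, the initiation factor that Ifit proteins bind, served as a comparison, with 10 of 17 genes in the table. Their median was -0.93 as deposited and -0.01 with libraries centred and Ctrl 1 left out, near the median of the table in both, and 0.22 with quantile normalization, a change of sign. *Cmtr1*, the enzyme that adds the cap methyl mark by which host RNA escapes Ifit1, stood at 3.75, 0.91 and 0.70 FPKM over the controls, with 0.70, 0.72 and 0.61 FPKM over the treated mice.

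**Figure D5:**
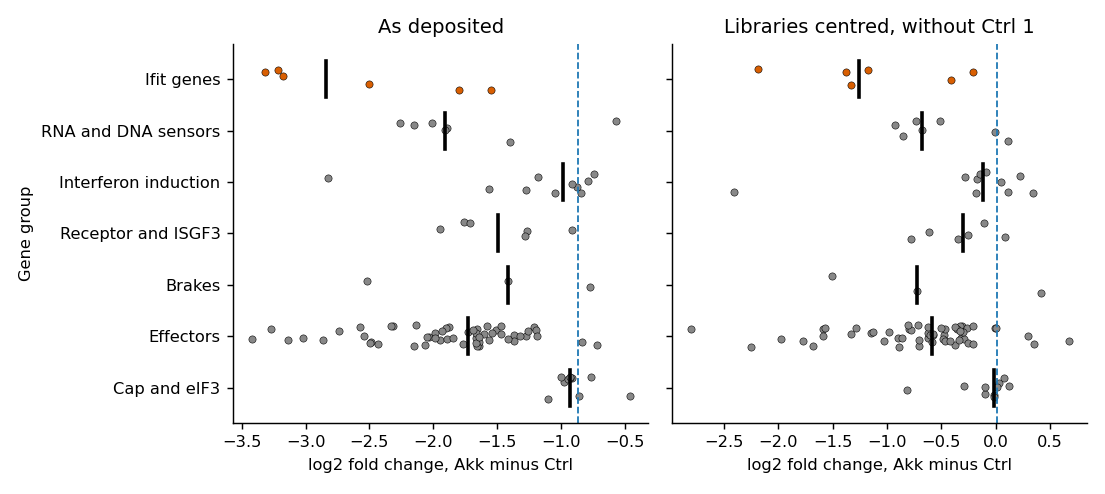
Log2 fold change of Akk minus Ctrl for the Ifit genes and for the genes of each role, 1 point per gene with a black bar at the group median, as deposited (left) and with libraries centred and Ctrl 1 left out (right). The blue dashed line is the median of the 8003 genes. The Ifit median lies at -2.84 and -1.25, to the left of the median of every role, while the median of the cap and eIF3 genes lies near the line. Single genes of the roles lie further left than the Ifit median, such as *Oasl2* at -3.42 and -2.80.

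The genes with the pattern most like the family were sought among the 2361 other genes with a mean of at least 1 FPKM, by the Pearson correlation of centred values with the mean Ifit profile over the 6 libraries. That profile was at 3.66, 2.37 and 1.56 in the Ctrl mice and at 0.52, 0.89 and 1.13 in the Akk mice. The 10 closest genes were *Cfb*, *Cyb5r3*, *Tlr7*, *Rnpep*, *Ifih1*, *Cdc42*, *Lgals3bp*, *Prdm2*, *Slfn8* and *Ppp1r9b*, with r from 0.975 to 0.996, and 4 of them are in the interferon lists. *Cfb*, complement factor B, was the closest and measured 6.24, 0.60 and 0.12 FPKM in Ctrl 1 to 3, against 0.05, 0.03 and 0.05 FPKM in Akk 1 to 3. A high r was common, since 152 genes (6.44%) reached 0.9, and all share the same 6 libraries. Without Ctrl 1, a setting added after seeing the data, the 10 genes had r from 0.92 to 0.99 over 5 libraries. Likeness of shape did not mean likeness of size, because *Cyb5r3* had a log2 fold change of -1.18 and *Cdc42* of -1.22.

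Levels of blood cell markers moved with the Ifit genes in part. The summed FPKM of the 5 monocyte markers was 230.77, 39.64 and 12.33 in the Ctrl mice and 15.34, 6.24 and 13.67 in the Akk mice, with Ctrl 1 and Ctrl 2 the highest, as for *Ifit3*. Ctrl 3, however, was below 2 of the Akk mice in this sum, while its *Ifit1*, *Ifit1bl1* and *Ifit1bl2* were above all of them. For the other members Ctrl 3 was not above all Akk mice. It was below Akk 1 for *Ifit2* and *Ifit3*, and below Akk 3 for *Ifit3b*. The 8 neutrophil markers summed to 1394, 388 and 251.29 FPKM in the Ctrl mice and to 143.43, 366.35 and 227.06 FPKM in the Akk mice, so that Akk 2 was close to Ctrl 2 in the sum. Taken singly, 3 of the 8 (37.5%, beside 15.4% of the table) had all Akk mice below all Ctrl mice. With libraries centred 1 of the 8 did (12.5%, beside 4.44%). The 4 platelet markers summed to 2593.89, 576.07 and 250.39 FPKM in the controls and 319.12, 329.89 and 401.51 FPKM in the treated mice, without a separation of the groups. The 3 natural killer cell markers did separate them, with sums of 19.57, 10.49 and 5.66 FPKM over the controls and 5.23, 4.03 and 2.67 FPKM over the treated mice. So did the 2 T cell markers in the table, with 4.85, 2.40 and 1.86 FPKM against 1.56, 1.21 and 0.71 FPKM. With libraries centred, 1 of the 3 natural killer cell markers and 0 of the 2 T cell markers had all Akk mice below all Ctrl mice. The share of the table was 15.4% as deposited and 4.44% centred. No listed monocyte or platelet marker did so in either setting. Of the Ifit genes, *Ifit1* and *Ifit1bl1* did in both settings and *Ifit1bl2* only as deposited. *Ifit2*, *Ifit3* and *Ifit3b* did in neither. The median log2 fold change was -1.75 for the monocyte and -1.58 for the natural killer cell markers, beside -1.66 for the 81 interferon-list genes. With libraries centred and Ctrl 1 left out, these medians were -0.46, -0.85 and -0.50. In that setting the T cell median was -0.57, the neutrophil median -0.20 and the platelet median 0.02. None of the listed monocyte, neutrophil or platelet markers was at 0 in any library. The defining markers of plasmacytoid dendritic cells, a main source of type I interferon, were low, with *Siglech* at 0.27 FPKM in Ctrl 1 and 0.12 FPKM or less elsewhere. The part of cell make-up in the Ifit differences was not tested, and in bulk blood fewer cells of a type and less RNA per cell cannot be told apart.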

How the data were processed

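RNA-seq libraries from blood of 3 Ctrl and 3 Akk mice were analysed as deposited. The authors cleaned the reads, aligned them using HISAT2 and Bowtie2, estimated levels by RSEM, and gave FPKM to 2 decimals in the deposited table. The submitters' processing notes also list TopHat2, Cufflinks and GRCm38. Whether counting used strand is not given in the sources used here. Groups and replicate numbers came from the sample descriptions.

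The deposited FPKM were put on a log2 scale as log2(FPKM + 0.1), and Akk was compared with Ctrl over all 8003 genes by limma (version 3.58.1, R version 4.3.3) using an intensity trend, no scaling between libraries and Benjamini-Hochberg adjustment. The fit was tested on simulated data. Transcripts were compared with blastn 2.17.0 on the longest GENCODE transcript, and promoters are RefSeq windows, matched by gene ID for 6 of 6 Ifit genes. Python 3.11.15 and matplotlib 3.10.9 were used for the rest. The members, lists and named genes (all Ifit genes, list genes by role, and the 10 genes with the closest pattern) were chosen with earlier results of these data known. P-values reflect 3 mice per group, the number of which limits the precision. Alternatives were pseudocounts of 1 and 0.01, a mean FPKM of at least 1, centred libraries, quantile normalization, no trend, each library left out, centring without Ctrl 1, and the replicate number as a block.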

Additional observations from a re-analysis of the deposited data

How the results depend on the processing

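Each of the 6 Ifit genes kept a negative log2 fold change in all 14 alternative fits that gave it a value. A mean FPKM of at least 1 left out *Ifit1bl2*. No lower and no higher genes were called as deposited. The count was 4 lower genes with a pseudocount of 0.01, 1 higher gene with libraries centred, 1 lower and 1 higher gene with centring and Ctrl 1 left out, and 1 lower gene with the replicate block. With each library left out in turn, 0 to 23 genes were lower and 0 to 3 Ifit genes were called, and the most in each case was without Ctrl 3. Over these 6 fits the log2 fold change ran from -3.89 to -2.44 for *Ifit1*, from -4.84 to -1.58 for *Ifit3* and from -4.49 to -1.63 for *Ifit3b*. Over all alternatives the adjusted p from limma ran from 0.0174 to 0.721 for *Ifit1*, from 0.0013 to 0.999 for *Ifit3* and from 0.0052 to 0.999 for *Ifit3b*. The median of the brakes became -2.72 with a pseudocount of 0.01. That list has 3 genes, and 1 of them, *Socs1*, was at 0.04 FPKM in Akk 2 and 0 FPKM in Akk 3. With quantile normalization the median became 0.026 for the interferon induction list and 0.22 for the cap and eIF3 list. With libraries centred the same medians were -0.07 and -0.01, beside 0.04 for the table. The cause of these changes was not tested. The replicate numbers are given to different mice. Across genes, deviations from the group mean in libraries of 1 number had correlations of 0.036, -0.011 and -0.096, so the block is an alternative only. It called 0 Ifit genes.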

Other observations

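Genes beside the cluster had smaller differences than *Ifit1*, *Ifit3* and *Ifit3b*. *Lipa*, the lysosomal acid lipase gene on the *Ifit2* side, had values of 4.51, 1.47 and 0.70 FPKM (Ctrl 1, 2, 3) and 0.79, 0.37 and 0.64 FPKM (Akk 1, 2, 3), a log2 fold change of -1.41. That value was nearer to those of *Ifit1bl2* (-1.55) and *Ifit2* (-1.80) than to the table median. *Slc16a12*, a transporter gene on the *Ifit1* side, stood at 0.44, 0.16 and 0.08 FPKM over the controls, with 0.03, 0.10 and 0.04 FPKM over the treated mice, a log2 fold change of -0.93, near the table median of -0.87. Of the RefSeq genes within 200 kb of the cluster, the remaining one in the table was *Pank1*, at 0.06 FPKM or less in all 6 libraries.

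The Ifitm genes encode interferon-induced membrane proteins that block virus entry and are unrelated to the Ifit genes despite the name. *Ifitm3* measured 380.29, 117.62 and 38.07 FPKM in Ctrl 1 to 3, against 26.35, 30.68 and 33.76 FPKM in Akk 1 to 3, without overlap. *Ifitm2* had values of 129.52, 25.54 and 13.30 FPKM (Ctrl 1, 2, 3) and 15.52, 24.75 and 20.12 FPKM (Akk 1, 2, 3). Its log2 fold change was -0.83 as deposited and 0.35 with libraries centred and Ctrl 1 left out, a change of sign that none of the 6 Ifit genes showed in that setting.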
